A study of Homo sapiens with 27 samples.

Results

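MM134 and SUM44F parental cells were compared with each other as they stood before the selection for estrogen-independent growth, and the members of the comparison were all 6 libraries whose labels named these cultures: 3 of MM134 parental and 3 of SUM44F parental, of 27 libraries in the series. Both are established human cell lines of estrogen receptor (ER)-positive invasive lobular breast carcinoma. MM134 is the short name of MDA-MB-134VI, and SUM44F is a parental culture of the SUM44 line, which the study's methods say was grown out of SUM44PE by months of culture in the serum-containing medium used for MM134. The series profiled the parental cells and their long-term estrogen-deprived (LTED) variants by RNA sequencing in 9 groups of 3 libraries each. Besides the 2 groups compared here, the others were the SUM44PE parental culture itself, 4 MM134 LTED variants (A, B, D and E) and 2 SUM44 LTED variants (A and B).

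The 6 parental cultures all received the same treatment before collection: they were hormone deprived for 3 days, with repeated washes, in phenol red-free medium with charcoal-stripped serum. No drug, estradiol or transgene was applied to either line. Each group was 1 cell line seeded in triplicate wells, and nothing in the labels says that the wells came from separate thaws or passages, so the p-values below measure the spread between wells of 1 culture of each line.

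Invasive lobular carcinoma is a histological type of breast cancer in which the tumor cells typically lose the cell-cell adhesion protein E-cadherin and grow as single cells or in files. Most of these tumors express ER, a nuclear receptor that switches on growth genes when it binds estrogen, together with its cofactors FOXA1 and GATA3, and they are treated with drugs that block the receptor or the production of its ligand. Cell lines of this type are few and each carries its own set of gained, lost and silenced genes.

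The libraries held between 28583554 and 33811162 estimated counts in MM134 and between 44487388 and 76250461 in SUM44F. Every SUM44F library was deeper, so depth and line went together in the design. Genes of the mitochondrial genome took 0.839% to 1.07% of the counts in MM134 and 1.77% to 2.65% in SUM44F. Levels are given as CPM, the counts of a gene relative to the total of its library after trimmed mean of M values (TMM) scaling; they are not divided by gene length, so a level is compared between libraries and not between genes. The epithelial marker EPCAM measured 281, 274 and 279 CPM in MM134 and 611, 616 and 627 CPM in SUM44F, and 6 of 8 epithelial markers were called different, 1 higher in MM134 and 5 higher in SUM44F. The 10 immune markers summed to 1.68 to 2.05 CPM in MM134 and 43.0 to 56.2 CPM in SUM44F, of which ITGAM alone, the alpha chain of an integrin of myeloid cells, was 48.5, 46.8 and 41.01 CPM in SUM44F and 0.406, 0.354 and 0.389 CPM in MM134. CD3E, CD2, MS4A1, CD14 and TYROBP were among those too low to be tested. Of the 6 endothelial markers, PECAM1 was 29.3, 28.6 and 24.1 CPM in SUM44F against 1.09, 1.12 and 1.06 in MM134, whereas CDH5, KDR and TEK were too low to be tested.

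One library of each line stood apart from its replicates. In SUM44F replicate 1, 105 protein-coding genes had over 5 times the level of either other SUM44F library (0.2 CPM added to the latter, genes over 2 CPM). Among them were COL3A1 at 144 CPM against at most 0.749 CPM in the others, LUM at 61.4 CPM, DCN at 41.8 CPM and COL1A1, all genes of connective tissue matrix. The 105 were not all matrix genes. IGFBP1 was 53 CPM, PAEP 50.2 CPM and MUC16 48.2 CPM, against at most 0.124, 0.259 and 8.55 CPM in the other SUM44F libraries. COL1A1 was 92.1 CPM in that library, 7.57 and 6.40 CPM in the other SUM44F libraries and 21.03, 24.5 and 24.7 CPM in MM134. In MM134 replicate 3 the count against the other MM134 libraries was 28 genes, led by FGF23 at 243 CPM against at most 25.7 CPM (195, 248 and 38.9 CPM in SUM44F), and in the other 4 libraries it was 0 to 2. The 8 fibroblast markers summed to 9.33 to 390 CPM in SUM44F and 22.8 to 39.4 CPM in MM134, and none of the 5 tested was called; without SUM44F replicate 1, COL1A1 was called higher in MM134. The source of these transcripts and their part in other differences was not tested. Some of the results that changed without these libraries are given with and without them. Other counts below are of all 6 libraries.

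The 2 parental lines differed in a large share of their transcriptome. A gene was called when its adjusted p was below 0.001 and its fold change above 1.5, by edgeR's quasi-likelihood test with Benjamini-Hochberg adjustment over all genes tested, which gave every adjusted p below. Of 25157 genes tested, 9284 were called (36.9%), 4816 higher in MM134 (19.1%) and 4468 higher in SUM44F (17.8%). Among protein-coding genes the share was larger: 7129 of 15462 were called (46.1%), 3815 higher in MM134 (24.7%) and 3314 higher in SUM44F (21.4%). The counts of the gene lists below stand beside this 46.1%, and a list near or under it is not set apart by its count. Of the 7129, 2240 differed more than 4-fold and 974 more than 16-fold. Conversely, 4376 protein-coding genes (28.3%) had a 95% confidence interval that lay wholly within 1.5-fold either way. The median absolute log2 difference of a protein-coding gene was 0.68, while the median signed difference was 0.01. In 18055 of all genes tested (71.8%) the 3 values of one line did not overlap the 3 of the other, so lack of overlap alone set no gene apart. Without both libraries that stood apart, 8192 genes were called, of which 7872 were also called with all 6. With every library thinned at random to the size of the smallest, 8968 genes were called. Of these, 8777 were among the 9284 called at full depth. Every log2 difference below is MM134 minus SUM44F, so a negative value is a higher level in SUM44F.

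**Figure D1:**
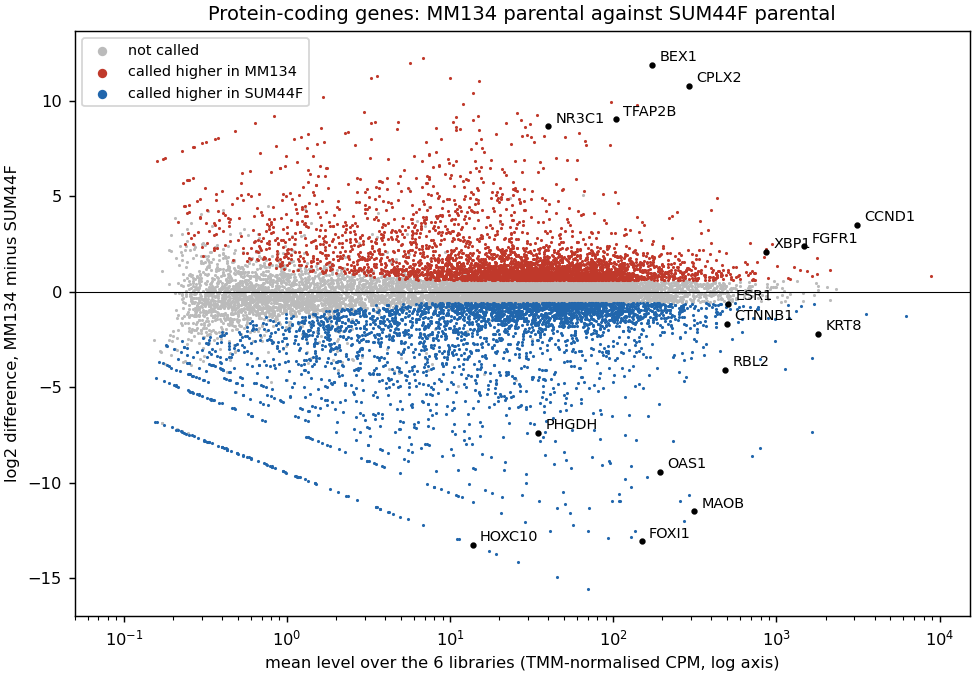
Log2 difference of each protein-coding gene tested (y axis, MM134 minus SUM44F) against its mean level over the 6 libraries (x axis, TMM-normalised CPM, log scale). Red points were called higher in MM134 (3815 genes), blue points higher in SUM44F (3314), grey points were not called, and labelled black points are genes named in the text. The oblique lines of points at the lower left are genes with 0 or a few counts in MM134, whose fitted difference depends on the prior count.

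The sharpest contrasts were genes measured in one line and below detection in the other, taken as at most 3 counts in every library of a line. Of 13389 protein-coding genes with at least 1 CPM in SUM44F, 207 (1.55%) were below detection in MM134, 59 of them with at least 10 CPM in SUM44F. In the other direction it was 45 of 13004 (0.346%), 7 of them with at least 10 CPM in MM134. The second number depended on one library: without SUM44F replicate 1, 76 genes were below detection in SUM44F. For these genes a fold is given only as a lower bound against 3 counts per library, which equal 0.0961 CPM in MM134 and 0.0564 CPM in SUM44F on average. The limit was thus lower in the deeper SUM44F libraries, and the 207 and the 45 were not counted at an equal limit.

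The 8 genes of highest level in SUM44F that were below detection in MM134 were led by FOXI1 and the S100 genes. FOXI1, a forkhead factor of acid-secreting epithelial cells, was 316, 335 and 247 CPM in the SUM44F libraries and 0.0312, 0.0590 and 0 CPM in the MM134 libraries, at least 3116-fold higher. ATP6V0A4, a subunit of the proton pump found in such cells, was 145, 149.9 and 133 CPM against 0.0625, 0.0295 and 0.0707 CPM, at least 1485-fold higher. The 3 wells of each line were alike for both genes. The calcium-binding S100 proteins S100A9 and S100A7, which are induced in inflamed and differentiating epithelium, were 293, 263 and 258 CPM and 276, 265 and 225 CPM in SUM44F, at least 2827-fold and 2656-fold above the MM134 limit. CASK, a scaffold protein of cell junctions and synapses on the X chromosome, was 184, 192 and 184 CPM in SUM44F, and in MM134 it had no count in replicates 1 and 2 and 0.0707 CPM in replicate 3. The remaining 3 were UGT1A6, a glucuronidating enzyme (143, 153 and 127 CPM), TSPYL5 (144, 147 and 126 CPM, no count in any MM134 library) and RYR2, the calcium release channel best known from heart muscle (110.1, 116 and 114 CPM). UGT1A6 shares exons with the other genes of its locus, so the assignment of its counts is uncertain.

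The 8 genes of highest level in MM134 that were below detection in SUM44F were led by BRINP1. BRINP1, a neuronal protein, was 30.6, 29.3 and 29.9 CPM in MM134 and 0.0233, 0 and 0.0123 CPM in SUM44F, at least 531-fold higher. XKR7 (27.9, 26.9 and 27.5 CPM), the small GTPase RAB39B (24.2, 24.4 and 23.5 CPM) and the netrin receptor UNC5D (21.6, 18.9 and 19.3 CPM) followed. GLDC, the glycine decarboxylase of the mitochondrial glycine cleavage system, was 22.6, 22.1 and 20.2 CPM in MM134, at least 384-fold above the SUM44F limit. NKX6-1, a homeodomain factor of pancreatic beta cells and the neural tube, was 13.2, 14.3 and 13.5 CPM with no count in any SUM44F library, at least 243-fold higher. FUOM (10.3, 12.1 and 11.6 CPM), which acts on the sugar fucose, and the ephrin ligand EFNB3 (9.50, 9.79 and 9.40 CPM) completed the list. In each of these 16 genes the 3 libraries of the expressing line lay within 1.5-fold of each other.

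CG dinucleotides are the sites of DNA methylation in mammals, and promoters differ widely in how many they hold. The 250 bases before the RefSeq start of 4 of these genes (build GRCh38.p14) are shown for contrast, 5′ to 3′ on the gene's strand with every CG in capitals: S100A9 (chr1:153357604-153357853, plus strand) and S100A7 (chr1:153460652-153460901, minus strand) from the SUM44F set, and BRINP1 (chr9:119369436-119369685, minus strand) and NKX6-1 (chr4:84499293-84499542, minus strand) from the MM134 set.
S100A9: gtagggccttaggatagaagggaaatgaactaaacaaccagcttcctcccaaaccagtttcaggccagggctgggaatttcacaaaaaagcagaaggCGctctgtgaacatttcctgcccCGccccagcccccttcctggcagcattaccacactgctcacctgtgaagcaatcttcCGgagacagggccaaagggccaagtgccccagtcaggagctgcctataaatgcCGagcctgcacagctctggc
S100A7: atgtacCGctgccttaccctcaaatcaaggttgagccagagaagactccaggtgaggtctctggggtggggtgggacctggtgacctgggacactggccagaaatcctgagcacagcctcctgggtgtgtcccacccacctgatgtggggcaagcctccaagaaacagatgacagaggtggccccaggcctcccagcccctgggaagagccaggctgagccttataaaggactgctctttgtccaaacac
BRINP1: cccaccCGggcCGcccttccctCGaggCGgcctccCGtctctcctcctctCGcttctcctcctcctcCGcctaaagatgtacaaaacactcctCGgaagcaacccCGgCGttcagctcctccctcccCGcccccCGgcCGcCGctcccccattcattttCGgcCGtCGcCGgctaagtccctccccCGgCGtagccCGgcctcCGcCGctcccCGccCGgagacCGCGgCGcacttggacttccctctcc
NKX6-1: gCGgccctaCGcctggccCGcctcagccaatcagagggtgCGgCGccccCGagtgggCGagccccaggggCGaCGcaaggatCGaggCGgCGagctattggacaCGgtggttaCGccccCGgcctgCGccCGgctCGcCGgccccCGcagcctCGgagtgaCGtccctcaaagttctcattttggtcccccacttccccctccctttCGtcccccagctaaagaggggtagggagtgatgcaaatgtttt
The S100A9 promoter held 4 CG and that of S100A7 held 1, against 28 in BRINP1 and 23 in NKX6-1. The median was 11 over all 27305 promoters of this length, of which 42.7% held at least 15, and 20 over those of the protein-coding genes tested, of which 67.0% did (12278 of 15454 such genes had a sequence). Among the SUM44F genes CASK had 37 and RYR2 had 25, while FOXI1 had 14, UGT1A6 had 4 and ATP6V0A4 had 2. Among the MM134 genes FUOM had 22 and GLDC had 19. Sequences were matched for 7 of the 8 genes of the SUM44F set and 4 of the 8 of the MM134 set. Over all 207 and 45 genes, only 152 and 31 had a promoter sequence, under the minimum of 80%, so no count over these lists is given. The protein-coding background, with 12278 of 15454, was also just under that minimum, and nothing is read from it.

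**Figure D2:**
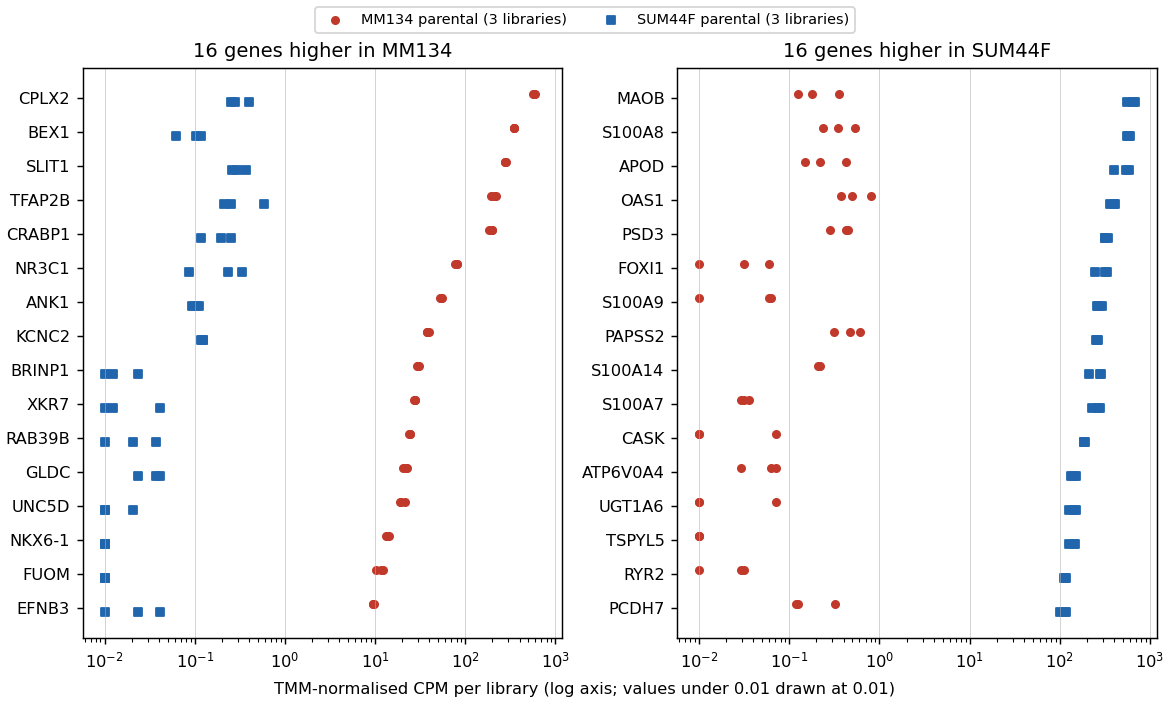
Level of 32 genes in each of the 6 libraries (x axis, TMM-normalised CPM, log scale; values under 0.01 are drawn at 0.01), 16 genes higher in MM134 on the left and 16 higher in SUM44F on the right. Red circles are MM134 libraries and blue squares SUM44F libraries; for every gene shown the 2 lines are separated by a gap wider than the spread of either.

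Among genes with more than 3 counts in all 6 libraries, the largest difference toward MM134 was that of BEX1. BEX1, a small adaptor protein of neurons on the X chromosome, was 345, 343 and 351 CPM in MM134 and 0.116, 0.104 and 0.0618 CPM in SUM44F (log2 difference 11.90, SE 0.105, adjusted p = 3.7e-10). CPLX2, a complexin that controls the fusion of synaptic vesicles, was 569.7, 589 and 585 CPM against 0.279, 0.250 and 0.395 CPM (log2 10.80). SLIT1, a secreted axon guidance ligand, was 279, 283 and 275 CPM against 0.256, 0.291 and 0.371 CPM, and CRABP1, which binds retinoic acid in the cytoplasm, was 200.3, 196 and 183 CPM against 0.116, 0.250 and 0.198 CPM. The same list held a pair of transcription factors. TFAP2B, an AP-2 factor, was 218, 208 and 193 CPM in MM134 and 0.209, 0.250 and 0.593 CPM in SUM44F (log2 9.02, SE 0.218). NR3C1, the glucocorticoid receptor, was 80.96, 77.5 and 80.3 CPM in MM134 and 0.233, 0.333 and 0.0865 CPM in SUM44F (log2 8.65, SE 0.234, adjusted p = 1.42e-08), so its transcript was almost absent from SUM44F. The list was completed by ANK1, an ankyrin of the membrane skeleton (log2 8.98), and KCNC2, a voltage-gated potassium channel (log2 8.26).

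Toward SUM44F, MAOB, the mitochondrial monoamine oxidase B, was 646, 678 and 554 CPM in SUM44F and 0.125, 0.177 and 0.353 CPM in MM134 (log2 -11.51, SE 0.190, adjusted p = 1.31e-09). APOD, a lipid-carrying lipocalin, was 549, 589 and 401 CPM against 0.219, 0.147 and 0.424 CPM (log2 -10.96). The list also held S100A8 and S100A14. S100A8, the partner of S100A9 in the heterodimer calprotectin, was 587, 593 and 555 CPM against 0.344, 0.236 and 0.530 CPM, and S100A14 was 276, 285 and 209.8 CPM against 0.219, 0.206 and 0.212 CPM. Thus 4 S100 genes of the chromosome 1 cluster, between positions 153357854 and 153616986, were under 1 CPM in every MM134 library and far above that in every SUM44F library. OAS1, an interferon-induced sensor of double-stranded RNA, was 396, 409.8 and 357 CPM against 0.375, 0.796 and 0.495 CPM (log2 -9.42, SE 0.160). PSD3 (314, 316 and 341 CPM against 0.281, 0.442 and 0.424 CPM), the protocadherin PCDH7 (112, 117 and 101 CPM against 0.125, 0.118 and 0.318 CPM) and PAPSS2, which makes the sulfate donor of sulfotransferases (264, 258 and 251 CPM against 0.312, 0.472 and 0.601 CPM), completed the 8.

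As a measure of what the lines shared, RPS3, CD24, HSP90AB1 and AHNAK were among the 5 genes of highest CPM whose confidence interval lay within 1.5-fold. RPS3, a ribosomal protein, was 2415, 2525 and 2416 CPM in MM134 and 2432, 2423 and 1721 CPM in SUM44F. CD24, a surface glycoprotein of luminal cells, was 1833, 1819 and 1990 CPM in SUM44F (log2 0.24, SE 0.0705). HSP90AB1, a chaperone of steroid receptors, had a log2 difference of 0.10 (SE 0.0853).

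The cofactors FOXA1 and GATA3 were not called, ESR1 was called at a small fold, and several other luminal transcription factors differed more. ESR1, which encodes ER alpha (chromosome 6, 151656691 to 152129619), was 407, 383 and 398 CPM in MM134 and 615, 639 and 596 CPM in SUM44F, 1.56-fold higher in SUM44F (log2 -0.64, SE 0.0537, adjusted p = 1.11e-05). The groups did not overlap, but the fold was close to the limit of 1.5. FOXA1, the pioneer factor that opens chromatin for ER, was 441, 444 and 444 CPM and 464, 477 and 423 CPM, with overlapping groups (log2 -0.04, SE 0.0584). GATA3, the luminal lineage factor, was 191, 191 and 158 CPM and 216, 252 and 220.4 CPM and not called. Of 16 genes in this list, 5 were called higher in MM134 and 4 higher in SUM44F, with a median log2 difference of -0.09. XBP1, a factor of the secretory pathway, was 1422, 1360 and 1440 CPM in MM134 against 332, 324 and 334 CPM in SUM44F (4.27-fold higher), and TBX3, a T-box factor of mammary development, was 430.5, 429 and 426 CPM against 28.4, 27.8 and 26.98 CPM (15.5-fold higher). MM134 thus had the higher level of both genes in every library, as it had for TFAP2B. The epithelial ETS factors ELF3 and EHF were higher in SUM44F, at 163, 158 and 139 CPM against 16.8, 17.1 and 16.6 CPM and 133, 128 and 135 CPM against 25.2, 25.9 and 27.04 CPM. TFAP2C was also called higher in SUM44F, but in MM134 it measured 36.4, 33.7 and 76.7 CPM, with replicate 3 above the others, and the call was lost without SUM44F replicate 1 or 2 or without MM134 replicate 1 or 2. PGR, the progesterone receptor and a classical ER target, was 2.69, 2.68 and 3.39 CPM in MM134 and 10.2, 1.41 and 1.69 CPM in SUM44F, where replicate 1 alone was high, and was not called.

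Genes that estrogen induces in breast cancer cells went in both directions. Of 24, 9 were called higher in MM134 and 7 higher in SUM44F, with a median log2 difference of 0.39. Without both libraries that stood apart the counts were 11 and 7. With the SUM44PE culture in place of SUM44F they were 8 and 9 (median -0.02). Since all libraries came from hormone-deprived cells, these are levels without added estrogen. GREB1, an ER cofactor, was 79.1, 78.5 and 72.9 CPM in MM134 and 51.2, 49.4 and 45.1 CPM in SUM44F (1.58-fold); its call was lost without SUM44F replicate 3, and its mean in the SUM44PE culture was 76.1 CPM. TFF1, a secreted trefoil peptide, was higher in SUM44F, at 17.3, 17.4 and 14.1 CPM against 4.72, 4.72 and 4.70 CPM. AGR2, a disulfide isomerase of the endoplasmic reticulum, and SERPINA1, a secreted protease inhibitor, showed the widest gaps toward SUM44F among genes detected in both lines. AGR2 was 322, 316 and 330.5 CPM in SUM44F and 2.69, 3.74 and 4.03 CPM in MM134 (log2 -6.54), and SERPINA1 was 208, 214 and 159 CPM and 1.91, 2.30 and 2.16 CPM (log2 -6.51). Toward MM134, MYC was 21, 21.1 and 21.5 CPM against 3.49, 2.87 and 2.46 CPM (7.26-fold), and AREG, the EGF receptor ligand amphiregulin, was 22.7, 19.6 and 20.2 CPM against 1.07, 1.19 and 1.28 CPM (17.5-fold). CXCL12, a chemokine that ER induces, was 44.2, 43.4 and 41.99 CPM in MM134 and 1.70, 0.166 and 0.247 CPM in SUM44F, again with the highest SUM44F value in replicate 1. NRIP1, a corepressor of ER, was 2.79-fold higher in MM134. TFF3, IGF1R and RARA were among the 8 not called, with log2 differences of 0.19, 0.02 and -0.00.

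CDH1, the E-cadherin gene, was detected in both lines, at 14, 14.4 and 14.2 CPM in MM134 and 26.4, 23.8 and 23.5 CPM in SUM44F (1.73-fold higher in SUM44F, adjusted p = 1.48e-05). A transcript level says nothing of whether the protein is made. The other classical cadherins divided the lines. CDH2, N-cadherin, was 60.4, 55.9 and 56.8 CPM in MM134 and 0.396, 0.0208 and 0.0741 CPM in SUM44F (log2 8.64, SE 0.399), while CDH3, P-cadherin, was 66.05, 67.4 and 54.2 CPM in SUM44F and 8.44, 7.96 and 8.13 CPM in MM134. CTNNB1, beta-catenin, which links cadherins to the cytoskeleton and carries WNT signals, was 780.3, 782 and 729 CPM in SUM44F against 243, 230.3 and 239 CPM in MM134 (3.22-fold higher in SUM44F). CTNNA1 and JUP, alpha-catenin and plakoglobin, were not called (log2 -0.21 and -0.22), nor was CTNND1, p120 catenin (log2 0.53). Of 16 cadherin and catenin genes tested, 4 were called in each direction (median -0.14).

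Of 11 genes of the epithelial-mesenchymal transition that could be tested, 3 were called higher in MM134 and 2 higher in SUM44F (median 0.10). FN1, fibronectin, was 165, 160.4 and 159 CPM in MM134 and 63.9, 49.2 and 47.05 CPM in SUM44F, and TWIST1, a transcription factor of mesenchymal cells, was 42.9, 44.6 and 44.3 CPM and 17.4, 16.1 and 17.6 CPM. VIM, the mesenchymal filament vimentin, was 141, 145 and 148 CPM in MM134 and 33.4, 8.11 and 8.36 CPM in SUM44F, with replicate 1 of SUM44F above its replicates; the call held without that library but was lost when any MM134 library or either of the other SUM44F libraries was left out. TCF4 was in contrast higher in SUM44F, at 41.6, 38.1 and 39.2 CPM against 1.16, 0.884 and 0.884 CPM (log2 -5.34). ESRP1, an epithelial splicing factor, was not called (log2 0.21), and ESRP2 was 1.88-fold higher in SUM44F. SNAI2, TWIST2 and PRRX1 were too low in both lines to be tested.

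Keratins, the intermediate filament proteins of epithelium, were called in both directions. KRT8 was 3157, 3129 and 2643 CPM in SUM44F and 651, 639 and 641 CPM in MM134 (4.62-fold higher in SUM44F), and its partner KRT18 was 1506, 1468 and 1307 CPM and 544, 533 and 526 CPM (2.67-fold). KRT19 went the other way, at 2293, 2337 and 2330 CPM in MM134 and 1255, 1214 and 1180 CPM in SUM44F. Of 13 markers of basal cells only 7 could be tested, and 5 of those were called higher in SUM44F and 0 higher in MM134 (median -3.70). LAMB3, a laminin chain of the basement membrane, was 82.3, 73.8 and 62.9 CPM in SUM44F against 4.16, 4.42 and 3.89 CPM in MM134, and its receptor subunit ITGB4 was 64.2, 65.2 and 53.6 CPM against 3.06, 2.56 and 2.58 CPM. TP63, the transcription factor of basal epithelium, was 3.51, 2.89 and 3.00 CPM against 0.4999, 0.383 and 0.530 CPM. The defining basal keratins KRT5 and KRT14 were too low in both lines to be tested, as was EGFR.

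FGF receptor 1 is amplified with its neighbours on 8p11 in a portion of lobular cancers, and cyclin D1 with its neighbours on 11q13. FGFR1 (chromosome 8, 38400215 to 38468834) was 2495, 2515 and 2446 CPM in MM134 and 483, 504 and 449 CPM in SUM44F (5.19-fold higher in MM134, adjusted p = 2.48e-08). Of 18 genes of the 8p11 list, 2 were called higher in MM134, 3 higher in SUM44F and 13 were not called, with a median of -0.06. LETM2, whose annotated span overlaps that of FGFR1, was 67.1, 64.5 and 61.7 CPM in MM134 against 18.5, 19.7 and 23.6 CPM in SUM44F, while ZNF703, a luminal corepressor, was 304, 351 and 283 CPM in SUM44F against 89.5, 92.9 and 77.5 CPM in MM134. NSD3, a histone methyltransferase gene beside LETM2, was 1459, 1389 and 1389 CPM and 1431, 1521 and 1520 CPM and not called. On 11q13 most genes tested were higher in MM134. CCND1, cyclin D1 (chromosome 11, 69641156 to 69654474), was 5930, 5704 and 5619 CPM in MM134 and 524, 536 and 463 CPM in SUM44F (11.3-fold higher, SE of the log2 difference 0.0936). CTTN, the actin regulator cortactin, was 1937, 1920 and 1887 CPM against 888, 892 and 810.1 CPM, ANO1, a chloride channel, was 17.5, 18.96 and 15.6 CPM against 2.35, 1.89 and 1.67 CPM, and PPFIA1, a liprin, was 794, 754 and 754 CPM against 317, 323 and 315 CPM. Of the 9 genes tested, 7 were called higher in MM134 and 1, MYEOV, higher in SUM44F (median 1.27), and the neighbouring SHANK2 was not called (log2 0.06).

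Among FGF receptors and the genes their signal induces, 8 of 16 were called higher in MM134 and 2 higher in SUM44F (median 0.59). FGFR4 was 172, 178 and 174 CPM in MM134 and 101, 104 and 86.9 CPM in SUM44F, and its mean was 122 CPM in the SUM44PE culture, with which the call was lost. The feedback inhibitor SPRED1 was 121, 119 and 131 CPM against 21.9, 20.7 and 23.3 CPM, whereas SPRY1, another inhibitor, was higher in SUM44F at 6.10, 6.07 and 5.51 CPM against 1.28, 1.27 and 1.27 CPM. The adaptor FRS2, which couples the receptors to RAS signalling, was 147, 151 and 150 CPM in SUM44F against 62.4, 58.7 and 61.5 CPM in MM134. DUSP6, a phosphatase induced by ERK, did not pass the fold limit (log2 0.58). This count rested on single libraries: 5 of the 16 were called without MM134 replicate 3, and 6 without MM134 replicate 2, SUM44F replicate 2 or SUM44F replicate 3. With the SUM44PE culture in place of SUM44F, 5 were called higher in MM134 and 4 higher in SUM44. FGFR2, SPRY4 and ETV4 were among the members whose calls were lost without 1 library.

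Of the ERBB receptors, ERBB2 and ERBB4 were called higher in SUM44F. ERBB2 was 194, 193 and 175 CPM in SUM44F and 82.7, 79.8 and 77.9 CPM in MM134 (2.33-fold), and ERBB4, the neuregulin receptor, was 117, 122.7 and 125 CPM and 5.72, 5.13 and 5.90 CPM (log2 -4.45, SE 0.0657). ERBB3, the kinase-poor partner of ERBB2, was not called (log2 -0.21), and EGFR was too low to be tested. Of 11 genes tested 5 were called higher in SUM44F and 1, AREG, higher in MM134. Without both libraries that stood apart the counts were 3 and 1. The 5 included the ligand EGF at 6.82, 6.63 and 6.02 CPM against 1.81, 1.83 and 1.70 CPM. In the phosphoinositide 3-kinase (PI3K) pathway and among tumour suppressors, 5 of 19 genes were called higher in MM134 and 3 higher in SUM44F (median -0.08, 42.1% called). Those higher in SUM44F included the regulatory subunit PIK3R1 at 241, 252 and 235 CPM in SUM44F against 53.5, 51.1 and 52.5 CPM and the phosphatase INPP4B at 119, 125 and 122 CPM against 37.7, 37.3 and 39.9 CPM. The catalytic subunit PIK3CA was 1.65-fold higher in MM134, and AKT1 was not called (log2 0.15).

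Proliferation genes were higher in MM134. Of 22 genes of mitosis and DNA replication, 20 were called higher in MM134 and 0 higher in SUM44F. Their median log2 difference was 1.33 against 0.01 over all protein-coding genes. With the SUM44PE culture in place of SUM44F the counts were 16 and 0 (median 0.725). TOP2A, the topoisomerase of dividing cells, was 1628, 1540 and 1591 CPM in MM134 and 278, 284 and 291 CPM in SUM44F (5.58-fold). MKI67, the proliferation marker Ki-67, was 319, 289 and 262 CPM against 115, 128 and 106 CPM, CCNA2, cyclin A2, was 122.9, 112 and 124 CPM against 26.8, 25 and 27.5 CPM, and BIRC5, survivin, was 151, 151 and 151 CPM against 32.1, 31.3 and 31.5 CPM. In all 4 genes the groups were far apart and did not overlap. The replication helicase subunits MCM2 and MCM5 were 3.71-fold and 4.35-fold higher. AURKB and FOXM1 were the 2 not called, at log2 0.33 and 0.46. RNA amounts do not tell more dividing cells from more RNA in each.

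Of 21 genes that govern entry into S phase, 10 were called higher in MM134 and 3 higher in SUM44F (median 0.61). E2F1, an activator of S phase genes, was 119.6, 117 and 120.1 CPM in MM134 and 40.5, 42.9 and 35.8 CPM in SUM44F, and CCNE2, cyclin E2, was 90.3, 91.2 and 95.2 CPM and 30.9, 33.2 and 34.6 CPM. Inhibitors were among those higher in MM134: CDKN1B, p27, was 261, 256 and 267 CPM against 120.5, 120.5 and 124 CPM and CDKN2D was 18.8, 18.2 and 18.4 CPM against 2.72, 2.85 and 2.59 CPM. The inhibitor CDKN1A was instead called higher in SUM44F, at 93.2, 91.2 and 74.3 CPM against 54.9, 55.8 and 53.9 CPM in MM134 (1.57-fold). RBL2, the pocket protein p130 of resting cells, had the widest gap, at 891, 932 and 926 CPM in SUM44F and 54.7, 53.2 and 53.02 CPM in MM134 (log2 -4.09, SE 0.0558). CDK6, which partners cyclin D, was 71.9, 70.7 and 76.9 CPM in SUM44F against 23.2, 22.2 and 24.6 CPM in MM134. RB1 was 57.3, 50.8 and 52.8 CPM and 36.3, 38.5 and 41.3 CPM and did not pass the fold limit.

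**Figure D3:**
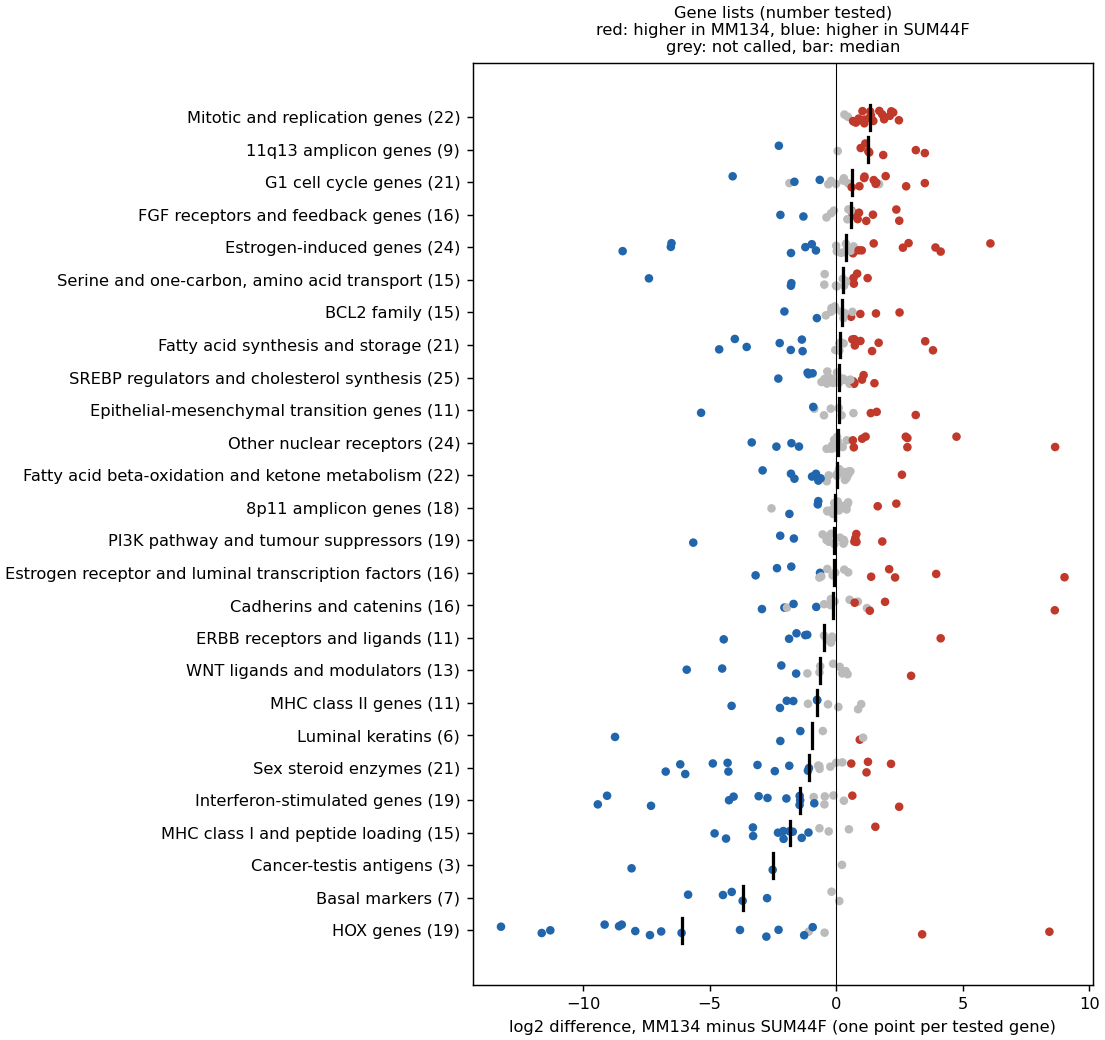
Log2 difference (x axis, MM134 minus SUM44F) of each gene tested in 26 gene lists, ordered by the list's median; the number tested is in parentheses, red points were called higher in MM134, blue points higher in SUM44F, grey points not called, and black bars are medians. Mitotic and replication genes stand at the top with a median of 1.33 and HOX genes at the bottom with a median of -6.11.

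Lipid metabolism was the pathway on which the study centred in the LTED variants. Between the parental lines some of its genes differed and others did not. The regulators SREBF1 and SREBF2, which switch on fatty acid and cholesterol synthesis, were not called: SREBF1 was 115, 118 and 122 CPM in MM134 and 162, 164 and 132 CPM in SUM44F, and SREBF2 was 92.8, 87.2 and 82.1 CPM and 80.8, 86.8 and 68.2 CPM. Of 25 genes of this regulation and of cholesterol synthesis, 6 were called higher in MM134 and 4 higher in SUM44F (median 0.10). This was 40% of them, against 46.1% of all protein-coding genes. SQLE, squalene epoxidase, was 180, 169 and 172 CPM in MM134 against 58.8, 61.5 and 62.3 CPM in SUM44F. DHCR7, the last step of the pathway, was 97.5, 99.5 and 79.4 CPM in SUM44F against 17.5, 19.9 and 19.2 CPM in MM134.

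In fatty acid synthesis and storage, 8 of 21 genes were called higher in MM134 and 7 higher in SUM44F (median 0.15, 71.4% called). FASN, fatty acid synthase, was 408, 409 and 383 CPM in MM134 and 416, 444 and 371 CPM in SUM44F, with overlapping groups (log2 -0.04, SE 0.0724). The desaturases were higher in MM134. FADS2 was 287, 278 and 286 CPM against 27.5, 27.4 and 19.8 CPM (11.4-fold), SCD5 was 101, 95.5 and 94.2 CPM against 5.93, 6.38 and 7.98 CPM (14.2-fold) and SCD was 1.67-fold higher. Toward SUM44F the genes were of other steps. DGAT2, which makes triglycerides, was 79.7, 79.2 and 66.6 CPM against 6.47, 6.81 and 6.08 CPM, PLIN2, a coat protein of lipid droplets, was 27.3, 23.3 and 22.2 CPM against 4.91, 5.16 and 5.41 CPM, and ACACB, which makes the malonyl-CoA that restrains fatty acid import into mitochondria, was 88.2, 94.2 and 84.2 CPM against 24.7, 26.9 and 25.1 CPM. THRSP, a regulator of lipogenesis, was 55.02, 54.05 and 43.9 CPM in SUM44F and 3.28, 2.98 and 3.25 CPM in MM134, but its mean was 4.04 CPM in the SUM44PE culture, with which the call was lost.

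Of 22 genes of fatty acid oxidation and ketone metabolism, 7 were called higher in SUM44F and 1 higher in MM134 (median 0.02). This was 36.4% of them, against 46.1% of all protein-coding genes. With the SUM44PE culture in place of SUM44F the counts were 8 and 5. HADHA and HADHB, both subunits of the mitochondrial trifunctional protein, were 594, 606 and 532 CPM and 614, 621 and 638 CPM in SUM44F, against 169.9, 164 and 167 CPM and 85.7, 80.7 and 82.8 CPM in MM134 (3.45-fold and 7.51-fold). ACADVL, which starts the oxidation of long chains, was 295, 304 and 266 CPM in SUM44F against 142, 152 and 152 CPM in MM134. CPT1A, the gate of fatty acids into mitochondria, was not called (log2 -0.37). OXCT1, the enzyme with which tissues use ketone bodies, was 85.99, 79.5 and 87.2 CPM in MM134 and 13.4, 13.9 and 14.4 CPM in SUM44F. Its mean was 49.9 CPM in the SUM44PE culture, and 74.9 and 7.5 CPM in the SUM44 LTED variants A and B.

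Most genes of antigen presentation by MHC class I and most interferon-stimulated genes were called higher in SUM44F. Of 15 genes of MHC class I and its peptide supply, 11 were called higher in SUM44F and 1 higher in MM134 (median -1.84). PSMB8 and PSMB9, immunoproteasome subunits, were 50.7, 46.9 and 45.96 CPM and 15.2, 13.5 and 11.9 CPM in SUM44F against 1.59, 1.504 and 2.05 CPM and 0.719, 0.590 and 0.672 CPM in MM134. The peptide transporter TAP1 was 48.9, 46.5 and 41.5 CPM against 4.38, 4.69 and 4.91 CPM. HLA-B was 289.6, 259.9 and 240.1 CPM in SUM44F and 54.3, 54.8 and 51.1 CPM in MM134, and the common light chain B2M was not called (log2 -0.30). Reads of the closely related HLA genes can be hard to assign. Of 11 MHC class II genes, 6 were called higher in SUM44F and 0 in MM134 (median -0.76). CD74, the invariant chain, was 47.1, 40.5 and 32.99 CPM in SUM44F and 24.5, 23.4 and 23.4 CPM in MM134, and the master regulator CIITA was 11.6, 11.02 and 10.4 CPM and 6.69, 6.34 and 6.61 CPM. HLA-DRA was 7.22, 8.05 and 7.60 CPM in MM134 and 5.75, 2.91 and 2.94 CPM in SUM44F and was not called. Without both libraries that stood apart, 1 class II gene, HLA-DRA, was called higher in MM134 and 3 higher in SUM44F, and neither CD74 nor CIITA was called. Without MM134 replicate 1 the calls in either direction numbered 3, and without MM134 replicate 2 they numbered 2.

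Of 19 interferon-stimulated genes, 12 were called higher in SUM44F and 2 higher in MM134 (median -1.44). With the SUM44PE culture in place of SUM44F the interferon-stimulated counts were 7 and 1 of 18 (median -0.46). All 3 neighbouring OAS genes of chromosome 12 had wide gaps: besides OAS1, OAS2 was 24.3, 23.8 and 24.4 CPM in SUM44F against 0.125, 0.177 and 0.141 CPM in MM134 and OAS3 was 166, 192 and 155 CPM against 0.250, 0.383 and 0.318 CPM. ISG15, a ubiquitin-like modifier, was 15.6, 14.6 and 13.3 CPM against 0.875, 0.914 and 0.813 CPM and IFIT2 was 12.3, 12.8 and 12.2 CPM against 1.5, 1.33 and 1.63 CPM. IFITM1 went the other way, at 14.9, 14.5 and 14.8 CPM in MM134 and 3.91, 2.12 and 1.94 CPM in SUM44F. MX1 and IRF7 were not called.

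HOX genes, which encode position along the body axis and are kept on or off in clusters, gave the lowest median of all lists (-6.11). Of 39 genes, 19 could be tested, and 15 were called higher in SUM44F and 2 higher in MM134. Without MM134 replicate 3 the counts were 11 and 2, and without both libraries that stood apart they were 12 and 2. By the limit of 3 counts per library, 20 were below detection in MM134 only, 2 in SUM44F only and 8 in both lines. The HOXB genes HOXB2 to HOXB7 and HOXB9 were all called higher in SUM44F. HOXB2 was 6.84, 7.28 and 7.13 CPM in SUM44F with no count in MM134, and HOXB7 was 12.2, 11.4 and 11.97 CPM against 0.0937, 0.147 and 0.0353 CPM. On the HOXC cluster of chromosome 12, HOXC10 was 28.4, 31.01 and 23.1 CPM and HOXC11 was 9.26, 10.1 and 7.66 CPM in SUM44F, with no count of either in any MM134 library. Their neighbour HOXC9 was nevertheless 6.91, 6.90 and 8.41 CPM in MM134 and 9.73, 10.4 and 10.4 CPM in SUM44F and not called, so the cluster was not silent as a whole. HOXD8 and HOXD1 of the HOXD cluster went the other way. HOXD8 was 10.6, 10.3 and 9.58 CPM in MM134 and 0.768, 0.957 and 1.12 CPM in SUM44F. HOXD1 was 0.937, 0.973 and 0.990 CPM in MM134 with no count in SUM44F. All 11 HOXA genes were too low to be tested.

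WNT ligands signal between neighbouring cells. Of 13 genes of this pathway tested, 4 ligands were called higher in SUM44F and 1 gene higher in MM134 (median -0.63, 38.5% called). WNT11 was 36.7, 41.8 and 35.3 CPM in SUM44F and 11.8, 13.2 and 12.9 CPM in MM134, and WNT3 was 19.8, 19.9 and 18.6 CPM and 4.25, 4.60 and 4.10 CPM. WNT4, an estrogen-regulated ligand in lobular cells, was 11.4, 10.96 and 8.66 CPM in SUM44F and 6.22, 6.78 and 6.96 CPM in MM134 and was not called (adjusted p = 0.00198). AXIN2, a feedback target of WNT signalling, was the gene higher in MM134, at 33.8, 32.9 and 33.6 CPM against 5.56, 4.12 and 3.34 CPM. Of 16 cancer-testis antigens, genes normally restricted to the germ line, 3 could be tested, and 2 were called higher in SUM44F, both at low levels (MAGEC1 0.675, 0.582 and 1.00 CPM with no count in MM134).

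Enzymes that make or inactivate sex steroids were mostly higher in SUM44F: of 21 tested, 11 were called higher in SUM44F and 4 higher in MM134 (median -1.08). Without both libraries that stood apart the counts were 9 and 3. STS, which frees estrone and other steroids from their sulfates, was 114, 122 and 104 CPM in SUM44F and 12.7, 13.4 and 13.3 CPM in MM134 (8.65-fold). CYP19A1, the aromatase that aromatase inhibitors block, was low in both, at 3.56, 4.14 and 4.07 CPM in SUM44F and 0.250, 0.147 and 0.212 CPM in MM134. SRD5A3 was 78.9, 78.3 and 73.1 CPM in SUM44F against 21.6, 20.5 and 21.6 CPM in MM134. AKR1C2 and AKR1C3 were 9.56, 10.02 and 8.31 CPM and 6.49, 5.97 and 5.41 CPM in SUM44F and under 1 CPM in every MM134 library, but reads of these near-identical genes are hard to divide between them, and their means in the SUM44PE culture were 162 CPM and 27.1 CPM. Among the 4 higher in MM134 was CYP1B1, an estrogen hydroxylase, at 556, 541 and 538 CPM against 118, 119.9 and 126 CPM in SUM44F.

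Of 24 other nuclear receptors tested, 9 were called higher in MM134 and 4 higher in SUM44F (median 0.06). After the glucocorticoid receptor, the widest gap was that of THRB, the thyroid hormone receptor beta, at 90.2, 86.8 and 88.1 CPM in MM134 and 3.31, 3.12 and 3.37 CPM in SUM44F (log2 4.75, SE 0.0571). Its mean was 30.6 CPM in the SUM44PE culture, between these levels, and in the LTED variants it averaged 56.7, 68.2, 73.3 and 91.3 CPM for MM134 and 67.7 and 88.96 CPM for SUM44 (parental minus LTED line difference 4.82, adjusted p = 5.96e-25). NR3C2, the mineralocorticoid receptor, was 38.96, 36.9 and 35.5 CPM against 5.47, 5.59 and 5.50 CPM and PPARA, a lipid sensor that drives fatty acid oxidation, was 37.4, 38.6 and 38.1 CPM against 5.75, 5.30 and 5.201 CPM. Toward SUM44F, NR1H3, the oxysterol receptor LXR alpha, was 31.8, 31.7 and 25.7 CPM against 3.19, 2.65 and 2.97 CPM, ESRRA, a receptor that drives mitochondrial genes, was 61.9, 62.2 and 54.2 CPM against 11, 11.8 and 11.8 CPM, and VDR, the vitamin D receptor, was 119.5, 128 and 103 CPM against 35.1, 34.9 and 32.8 CPM.

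In the BCL2 family, 4 of 15 genes tested were called higher in MM134 and 2 higher in SUM44F (median 0.21, 40% called). BCL2 itself, which blocks cell death and is an ER target, was 109, 96.6 and 96.6 CPM in MM134 and 98.2, 103 and 104 CPM in SUM44F and was not called (log2 -0.01, SE 0.0583). BOK was 50.9, 53.6 and 53.5 CPM in MM134 against 11.1, 9.11 and 7.76 CPM in SUM44F, and the death activator BIK was 51.2, 50.95 and 43.9 CPM in SUM44F against 11.8, 11.7 and 11.9 CPM in MM134. In serine and one-carbon metabolism with amino acid transport, 4 of 15 were called higher in MM134 and 3 higher in SUM44F (median 0.26), and 1 and 4 with the SUM44PE culture in place of SUM44F. PHGDH, the first enzyme of serine synthesis, was 73.3, 74.8 and 58.2 CPM in SUM44F and 0.4999, 0.324 and 0.389 CPM in MM134 (log2 -7.40, SE 0.168, adjusted p = 5.73e-09). PSPH, the last enzyme of that pathway, was 62.2, 63.6 and 63.5 CPM in SUM44F against 18.5, 17.8 and 19.2 CPM in MM134. SLC7A5, a carrier of leucine, was 90.95, 90.7 and 79.2 CPM against 23.9, 25.7 and 25.8 CPM, and SLC38A2, a carrier of neutral amino acids, was higher in MM134 at 409.8, 391 and 403 CPM against 169, 169.7 and 170.4 CPM.

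Differences were also arranged along chromosomes. Median log2 differences of protein-coding genes were highest on chromosomes 21 (0.64), 9 (0.61), 19 (0.56) and 22 (0.55), and lowest for the mitochondrial genome (-1.28, 8 of 13 genes called higher in SUM44F), chromosome 7 (-0.33) and chromosome 12 (-0.31). Windows of 40 neighbouring genes with at least 5 CPM were taken along each chromosome in steps of 20 genes. Of 557 windows over 11383 genes, 144 had a median above 0.5 and 32 a median below -0.5, together 31.6%. They formed 26 stretches shifted toward MM134 and 13 shifted toward SUM44F.

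The most extreme stretch toward MM134 lay on chromosome 22 from 17084954 to 37807432, where 119 of 160 genes were called higher in MM134 and 6 higher in SUM44F, and the extreme window had a median of 1.501. It held the cytokine MIF at 376, 409 and 425 CPM in MM134 and 110.3, 102 and 85.4 CPM in SUM44F and the splicing protein SNRPD3 at 139, 144 and 142 CPM and 53.1, 50.4 and 48.8 CPM. XBP1 and MCM5 lie in the same stretch. The next lay on chromosome 11 from 47269161 to 64226254 (extreme window 1.22), where the translation factor EEF1G was 2.44-fold higher in MM134, AHNAK was not called and FTH1, a ferritin subunit, went the other way (2.01-fold higher in SUM44F, a call lost without MM134 replicate 1 or without both libraries that stood apart). The last of the 3 lay on chromosome 19 from 8302127 to 49807114 (extreme window 0.96), whose extreme window held the zinc finger genes ZNF91, ZNF431 and ZNF714, 2.21-fold, 6.52-fold and 4.35-fold higher in MM134. Reads of this clustered zinc finger family may be shared between copies. With the SUM44PE culture in place of SUM44F, the medians of the extreme windows of chromosomes 22, 11 and 19 were 0.805, 1.32 and 0.983. The chromosome 22 window was then no longer the highest.

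Toward SUM44F the most extreme stretch lay on chromosome 2 from 9951693 to 32157637, with 70 of 100 genes called higher in SUM44F and 15 higher in MM134 and an extreme window at -1.58. HADHA, HADHB and the trafficking GTPase RAB10, 2.85-fold higher in SUM44F, were its genes of highest CPM in that window, so that both trifunctional protein subunits differed together with their neighbours. On chromosome 3 from 15450133 to 44510636 the extreme window was -1.42, with the ribosomal proteins RPSA (2.70-fold) and RPL14 (2.29-fold) and the Golgi protein GOLGA4 (3.52-fold) higher in SUM44F; CTNNB1 lies in the same stretch. On chromosome 11 from 34438934 to 57743554 it was -1.29, with CD44, a hyaluronan receptor, at 317, 329 and 305 CPM in SUM44F against 17.5, 15.6 and 13.8 CPM in MM134, CKAP5 1.70-fold higher and TRIM44 not called. RBL2 and ITGAM lie in a stretch of chromosome 16 from 31214119 to 56357444 whose window median was -1.06. With the SUM44PE culture in place of SUM44F, the medians of the extreme windows of chromosomes 2, 3, 11 and 16 were -1.27, -1.44, -1.19 and -0.978. These medians describe RNA levels; the number of gene copies was not measured.

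**Figure D4:**
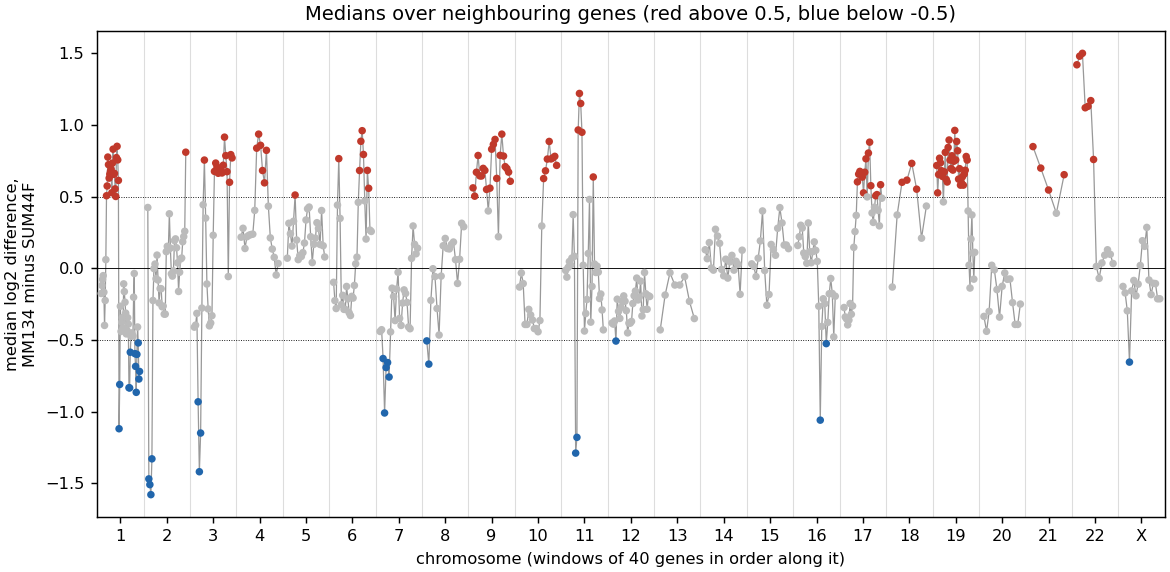
Median log2 difference (y axis, MM134 minus SUM44F) of 557 windows of 40 neighbouring genes, in order along each chromosome (x axis); dotted lines mark 0.5 and -0.5. The 144 red windows above and 32 blue windows below stand in runs, with the highest on chromosome 22 (1.501) and the lowest on chromosome 2 (-1.58).

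The same line difference could be followed in libraries that the parental comparison did not use. These were the 12 libraries of 4 MM134 LTED variants and 6 libraries of 2 SUM44 LTED variants, with 1 caution. In the SUM44 LTED-A group, the counts of replicates 2 and 3 were closer together than sampling noise alone would leave them. Their chi-square per degree of freedom was 0.312, where sampling noise gives about 1. The reason was not tested, and their mean entered as 1 sample. Of 29200 genes tested in the fit with LTED cells, 11282 were called between the MM134 and SUM44 LTED variants (38.6%), 5791 higher in MM134 (19.8%) and 5491 higher in SUM44 (18.8%). Of the 3815 protein-coding genes called higher in MM134 parental cells, 2210 were called the same way in LTED cells, 57.9% of the parental list and 64.0% of the LTED list. Of the 3314 called higher in SUM44F, 2136 were, 64.5% of the parental list and 59.6% of the LTED list. Calls in the opposite direction were 172 (4.51%) and 216 (6.52%). The difference between the line differences was itself called for 6111 genes (20.9%), 2968 above 0 (10.2%) and 3143 below (10.8%).

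Among the genes named for the largest gaps, some showed the gap in both states. TFAP2B averaged 256, 218, 271 and 291 CPM in the MM134 LTED variants and 0.528 and 0.465 CPM in the SUM44 LTED variants, and CRABP1 averaged 191, 169.8, 168 and 169 CPM and 0.112 and 0.110 CPM. NR3C1 averaged 37.3, 50.7, 50.2 and 49.2 CPM and 0.301 and 0.157 CPM, and CASK averaged 0.0350, 0.0467, 0.0433 and 0.104 CPM and 145 and 128 CPM. For these 4 genes the test of the change in line difference was not called. Others did not. S100A14 averaged 446, 85.7, 146 and 220.1 CPM in the MM134 LTED variants, which in the parental line was 0.219, 0.206 and 0.212 CPM, and 306 and 176 CPM in the SUM44 LTED variants (parental minus LTED line difference -9.97, SE 0.171, adjusted p = 1.24e-21). ATP6V0A4 turned direction, with means of 32.9, 5.86, 20.5 and 22.9 CPM in the MM134 LTED variants and 5.08 and 1.24 CPM in the SUM44 LTED variants. KCNC2 averaged 0.130, 0.410, 0.468 and 0.0842 CPM in the MM134 LTED variants.

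Gene lists gave the following counts in LTED cells, with no test of the lists against each other. Of the 22 mitotic and replication genes, 4 were called higher in MM134 and 3 higher in SUM44 LTED cells (median 0.01), and the parental counts were 20 and 0. Of the 11q13 genes, 8 were called higher in MM134 and 1 higher in SUM44. Of the MHC class II genes, 8 were called higher in MM134 and 0 higher in SUM44 (median 3.98), and the parental counts were 0 and 6. For MHC class I the LTED counts were 3 and 10. For the interferon-stimulated genes they were 4 and 6 (median 0.18), and the parental counts were 2 and 12. In the chromosome 22 stretch the median over its genes was 0.81 in LTED cells and 1.22 in parental cells, and in the chromosome 2 stretch it was -1.27 and -1.38.

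**Figure D5:**
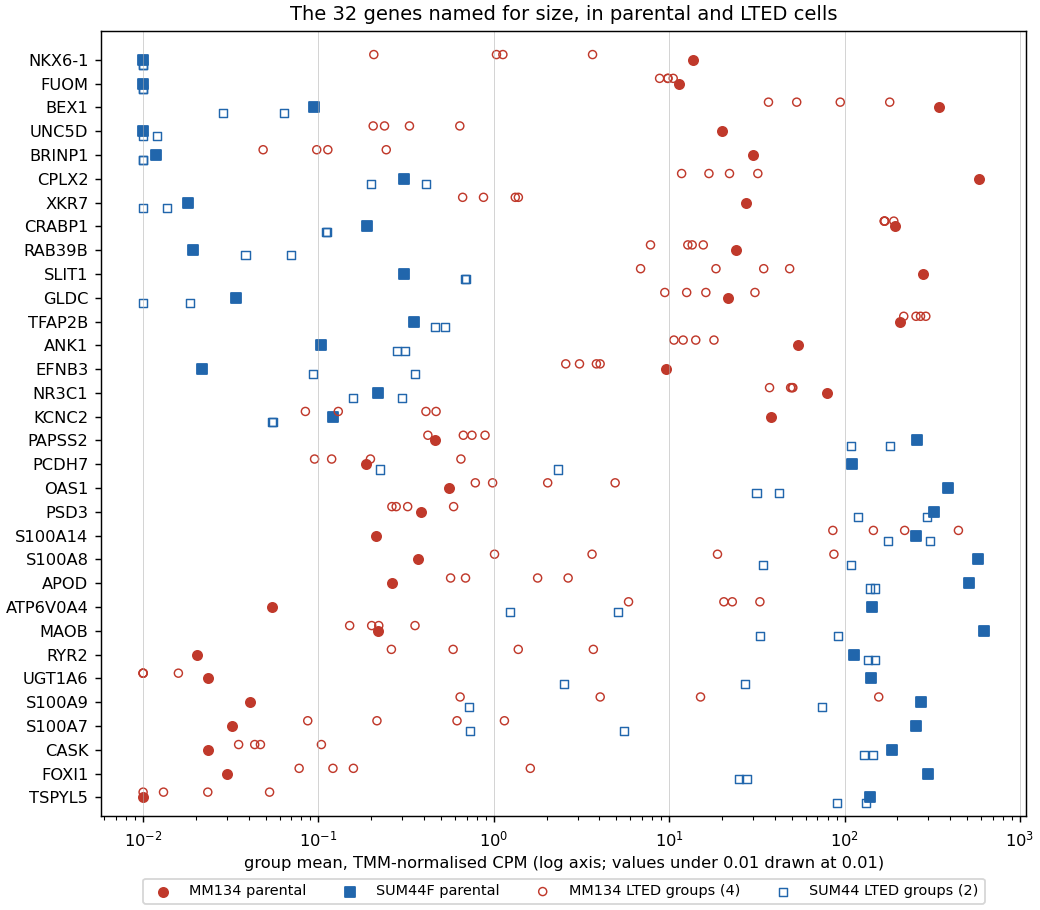
Group means (x axis, TMM-normalised CPM, log scale; values under 0.01 are drawn at 0.01) of the 32 genes with the largest gaps; filled symbols are the parental groups and open symbols the LTED groups, red circles for MM134 and blue squares for SUM44. TFAP2B and CRABP1 keep the parental gap, while the 4 open red circles of S100A14 stand between 85.7 and 446 CPM. Parental means were scaled over the 6 parental libraries and LTED means over all 27 libraries.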

How the data were processed

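RNA of the 6 parental libraries had been prepared with a stranded total RNA kit after 3 days of hormone deprivation. The deposited values are estimated counts per gene, which the authors made with Salmon 0.6.0 on human genome build hg38 and Ensembl release 82; they were rounded to whole numbers here. The count table holds 60619 genes, of which 56434 were matched to GENCODE version 44, the source of gene types and coordinates.

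Genes were filtered with filterByExpr, scaled by TMM and tested two-sided with edgeR 4.0.16 (glmQLFit, glmQLFTest; R 4.3.3), on the 6 libraries alone without covariates. LTED differences came from 1 fit of all groups except SUM44PE. The study fitted each cell line separately, with no direct test between the lines; its thresholds were used. DESeq2 1.42.0 was an alternative, beside other scalings, filters and left-out libraries. The fit was tested on simulated data. Deviations of same-numbered replicates correlated at -0.112, -0.0905 and -0.194, so the numbers did not pair the samples.

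Named genes were (a) the 8 of highest CPM below detection in the other line, each direction, (b) the 8 largest differences among called genes with over 3 counts in all libraries and at least 10 CPM in the higher line, each direction, (c) members of 26 gene lists and 4 marker lists, (d) the 3 most extreme stretches each direction with 3 genes each and (e) the 5 genes of highest CPM within 1.5-fold. XIST and chromosome Y were left out. Genes of the libraries that stood apart, and the positions of named genes in stretches, were chosen after their values were seen. The comparison, members and lists were chosen with earlier results of these data known. Results of some genes are not reported here, though they count in the totals.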

Additional observations from a re-analysis of the deposited data

Results flagged for a closer look

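For 17 of the 32 genes with the largest parental gaps, the line difference itself was called different between parental and LTED cells. The test was edgeR's quasi-likelihood test of the interaction, with adjusted p below 0.001 and a change over 1.5-fold. Over all genes of that fit 6111 of 29200 were called (20.9%). The 32 genes were chosen by their parental values, and the same parental libraries enter this test. A smaller gap in LTED cells was therefore favoured by the choice, and the 17 are not compared with that share. Values are the parental minus the LTED log2 difference of MM134 and SUM44. For genes at or near 0 counts in a group they depend on the prior count and are no bound. Genes outside the 17 were not shown to be unchanged, since near-0 counts gave some a very large SE. The SE was 31.3 for BRINP1, 17.6 for XKR7, 237 for UNC5D and 68.7 for FUOM. BRINP1 averaged 0.0977, 0.244, 0.0483 and 0.113 CPM in the MM134 LTED variants, against 29.95 CPM in the parental line. FUOM averaged 10.5, 9.81, 8.82 and 9.85 CPM in them.

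Of the 17 genes, 12 had been higher in SUM44F. In 9 of these 12 all MM134 LTED means were above the MM134 parental mean, and in 10 both SUM44 LTED means were below that of SUM44F. All 12 MM134 parental means were under 1 CPM, which left little room for a lower LTED mean, so these counts test nothing. The change was -9.97 for S100A14 and -12.86 for S100A9, which averaged 157, 0.642, 4.04 and 15.1 CPM in the MM134 LTED variants A, B, D and E and 0.723 and 74.2 CPM in the SUM44 LTED variants A and B. It was -7.92 for S100A8 (86.95, 1.01, 3.63 and 18.9 CPM and 34.3 and 109 CPM) and -14.14 for ATP6V0A4, the largest in size of the 17.

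The change was -10.35 for S100A7, -6.21 for FOXI1 (27.6 and 25 CPM in the SUM44 LTED variants), -7.27 for PCDH7 (2.32 and 0.225 CPM), -5.04 for OAS1 (42.4 and 31.4 CPM), -4.04 for APOD (139 and 148 CPM), -3.60 for MAOB (91.4 and 32.95 CPM) and -1.46 for PAPSS2 (109 and 182 CPM). For RYR2 it was -5.00, with 0.586, 0.261, 3.69 and 1.38 CPM in the MM134 LTED variants and 136 and 149 CPM in the SUM44 LTED variants.

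In the 5 genes of the 17 that had been higher in MM134, all MM134 LTED means were below the MM134 parental mean. The change was 6.37 for KCNC2, 4.76 for SLIT1 (18.5, 48.6, 34.6 and 6.87 CPM in the MM134 LTED variants), 4.73 for EFNB3 (3.08, 3.84, 4.04 and 2.57 CPM), 4.61 for CPLX2 (32.02, 11.8, 22.1 and 16.9 CPM) and 3.45 for ANK1 (12.01, 10.6, 18 and 14.2 CPM). The call for KCNC2 was lost without SUM44 LTED-A replicate 2. Single libraries that stand apart within a group were not searched for by a test, since each group has 3 libraries.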

How the results depend on the processing

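The number of genes called between the parental lines, 9284, lay between 6714 (fold minimum of 2) and 12570 (adjusted p under 0.05), and between 7494 and 9007 when 1 library, or both that stood apart, was left out; the same left-out libraries gave 264 to 298 genes below detection, 10761 to 11449 calls for the line difference in the LTED variants, 5696 to 6384 calls for the parental line difference against LTED line difference and 31.1% to 32.5% of windows shifted. With the replicate number as a block 7944 genes were called; the numbers did not pair the samples. Genes below detection in one line numbered 64 at 0 counts and 470 at up to 10 counts, in place of 252, since the limit itself sets that number. DESeq2 called 9843 genes. The share of calls higher in MM134 ranged from 46.4% to 54.1%; upper-quartile factors and no filter on low counts moved the median of all genes from -0.05 to -0.15 and -0.23, and under upper-quartile factors GREB1 and SPRY4 were among the genes that lost their calls. With the SUM44PE culture in place of SUM44F the log2 difference turned, together with a change of call, in 9 genes. Differences that turned without a change of call were not counted. The cause was not tested. The log2 difference of IGF1R was -1.003, and the others were PGR (0.86), GREB1 (-0.13), TFF3 (-0.81), FGFR2 (-0.84), SPRY4 (-0.092), FASN (0.66), CD74 (0.13) and COL1A1 (1.37). Of these only GREB1, FGFR2, SPRY4 and CD74 had been called. COL1A1, not called at -0.58, ranged from -1.13 to 1.73 over the left-out libraries, the highest without SUM44F replicate 1, and was 1.71 without both libraries that stood apart. Over all named genes and settings, 4623 values stayed on their side of the threshold, 103 lost a call, 25 gained one and 11 turned with a change of call. At the depth of MM134, a level under 0.0961 CPM could not be told from 0.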
